A study of Mus musculus with 6 samples.

Results

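The enzymes that build and remodel fatty acids were followed in livers of mice that lack AEG-1 in hepatocytes. They are 10 genes, found among the 46983 rows of the count table by their symbols in the GENCODE vM21 annotation, and all 10 were matched. They were listed by function, from the enzyme that splits citrate to those that elongate and desaturate the finished chains. Earlier results of these data were known when the list was made. The knockout group (AEG-1DHEP in the labels) carries a hepatocyte-specific deletion of AEG-1, the protein encoded by Mtdh, and the control group is AEG-1fl/fl, called WT in the sample titles. All mice were 12 weeks old, on a C57BL/6 background, chow-fed and untreated, so the groups share strain, diet and age. The labels do not name the Cre driver or the sex of the mice.

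RNA came from whole liver, with 3 libraries per group in the table. The column of control replicate 2 repeats that of control replicate 1, value for value. These columns count here as 1 sample, so 3 knockout livers are compared with 2 control livers, each from its own mouse by the labels. Depth per library was 29557477 to 33685670 counts. Levels are in CPM, read counts scaled to library size by the trimmed mean of M values, and in RPKM, the same per kilobase of exon, where genes are set beside each other. Mtdh had 48.0 and 54.6 CPM in the control libraries and 2.90, 2.23 and 2.37 CPM in the knockout libraries; here and below, control values are in the order of replicates 1 and 3 and knockout values in the order of replicates 1, 2 and 3. Mtdh was lower in every knockout library, with a log2 fold change of -4.36 (SE 0.15) and an edgeR adjusted p of 0.000564. Hepatocyte markers were at 75757 to 105342 CPM summed over 9 genes. Skeletal muscle markers were at 32.4 CPM in knockout replicate 1 and between 0.754 and 1.19 CPM in the other libraries.

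Fatty acid synthesis in the liver turns surplus carbohydrate into fat. Citrate leaves the mitochondria and is split to acetyl-CoA, which is carboxylated to malonyl-CoA and built into palmitate with reducing power from NADPH. Palmitate is then elongated and desaturated, mostly to oleate, while separate elongases and desaturases act on the polyunsaturated fatty acids of the diet. Several of these genes are textbook targets of the transcription factors SREBP-1c and ChREBP, which respond to insulin and glucose.

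Upstream sequence from RefSeq (build GRCm38.p6) was matched for 8 of the 10 genes, all but Scd1 and Fads1, and the 250 bases before the first listed start of each were searched on both strands for 5 motifs. These were the core of the sterol regulatory element (TCACNCCAC), the CCAAT box (CCAAT), the symmetric E-box (CACGTG), a second E-box (CATGTG) and the GC box (GGGCGG). Fasn and Acly are shown from the 4 enzymes for which every knockout library lay above both control libraries, and Elovl5 because it varied most between libraries. Acacb and Elovl6, which also belong to these 4, are not shown, and the Elovl6 window held none of the motifs. Bases in capitals are motif matches on either strand, and each sequence runs 5′ to 3′ on the strand of its gene. The Fasn sequence is chr11:120824548-120824797 (minus strand), the Acly sequence chr11:100528001-100528250 (minus strand) and the Elovl5 sequence chr9:77917115-77917363 (plus strand), 1 base short of the others because the next base is exonic in the count table.
Fasn: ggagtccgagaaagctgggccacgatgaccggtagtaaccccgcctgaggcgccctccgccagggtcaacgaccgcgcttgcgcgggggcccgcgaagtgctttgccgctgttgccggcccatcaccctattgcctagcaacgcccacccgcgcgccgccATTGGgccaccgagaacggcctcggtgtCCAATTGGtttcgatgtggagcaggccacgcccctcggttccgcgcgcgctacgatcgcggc
Acly: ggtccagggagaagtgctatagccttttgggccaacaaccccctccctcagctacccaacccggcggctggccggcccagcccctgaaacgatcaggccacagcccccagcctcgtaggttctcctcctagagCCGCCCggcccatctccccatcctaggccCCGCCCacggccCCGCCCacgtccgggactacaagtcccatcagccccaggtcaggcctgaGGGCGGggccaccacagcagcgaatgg
Elovl5: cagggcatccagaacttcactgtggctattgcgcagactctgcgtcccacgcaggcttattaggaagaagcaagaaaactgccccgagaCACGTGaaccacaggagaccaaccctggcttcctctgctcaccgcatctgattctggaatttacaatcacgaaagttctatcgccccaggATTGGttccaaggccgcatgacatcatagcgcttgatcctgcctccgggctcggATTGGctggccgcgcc

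The Fasn window held 3 CCAAT matches, 2 of which overlap, and the Elovl5 window held 2 CCAAT matches and 1 CACGTG. The Acly window held 4 GC boxes and none of the other motifs. Over the 8 genes, CCAAT was found in 3 windows and the GC box in 3, against 33.8% and 32.7% of the 32851 windows of this length in the table. CACGTG and CATGTG were each found in 1 window, against 6.02% and 12.3%, and the sterol regulatory element core in 0, against 1.05%. At so low a share, 0 of 8 windows does not show that these genes lack the element. The windows of Acaca and Acacb lie 65766 and 18983 bases inside the gene as the count table draws it, so they stand at internal starts. The 1 window with CATGTG is that of Acacb, which is also 1 of the 3 windows with CCAAT. A match is a run of letters and shows no binding.

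All 10 enzymes had a higher fitted level in knockout livers, by log2 fold changes from 0.27 to 1.15 with a median of 0.65, beside a median of 0.01 over the 16441 genes tested. A log2 fold change above 0 was found in 52.1% of all genes. None of the 10 passed the edgeR quasi-likelihood test at an adjusted p of 0.05, which 0.00608% of the genes tested passed, Mtdh alone. At an unadjusted p under 0.05, 4 of the 10 were higher (Fasn, Acacb, Elovl6 and Acly), against 1.63% of all genes. In these same 4, every knockout library lay above both control libraries, against 8.16% of all genes, and in the other 6 the groups overlapped. By DESeq2, 1 of the 10, Fasn, was called, against 0.116% of all genes, and by limma-voom 0 were. In whole liver, a change in the number of cells of a type cannot be told apart from a change in RNA per cell.

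**Figure D1:**
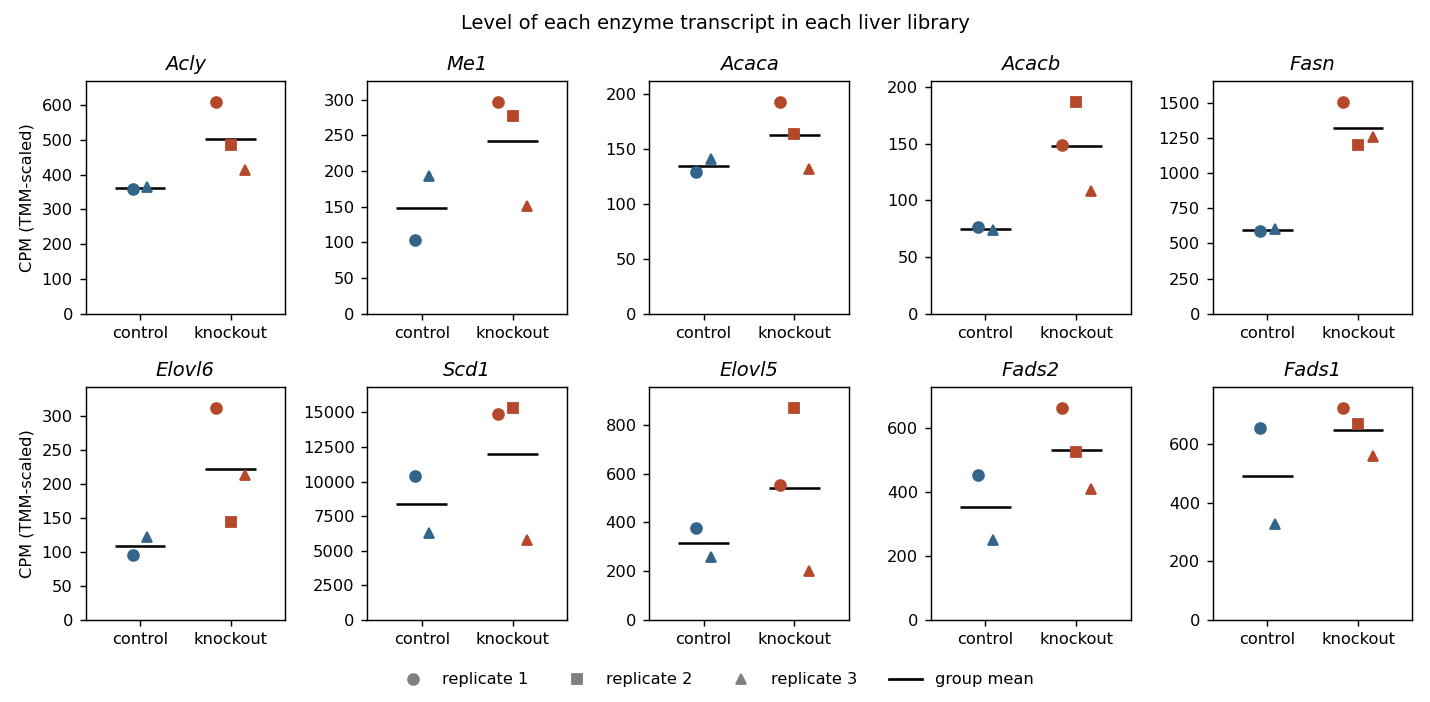
CPM of each enzyme transcript in each of the 5 distinct libraries, with linear axes from 0, the replicates as symbols and the group mean as a bar. For Acly, Acacb, Fasn and Elovl6 every knockout library lies above both control libraries, and for the other 6 enzymes the groups overlap.

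Acly (ENSMUSG00000020917, chr11:100476353-100528000, minus strand; all positions are gene spans in GRCm38), ATP citrate lyase, makes the acetyl-CoA from which the chain is built. Its levels were 360 and 365 CPM in control replicates 1 and 3 and 609, 486 and 413 CPM in knockout replicates 1, 2 and 3. The lowest knockout library was 1.13 times the highest control library, and the control libraries differed from each other by 1.01 times. The fitted log2 fold change was 0.47 (SE 0.19, 95% interval 0.02 to 0.93), with an edgeR adjusted p of 1.00 over all genes.

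Me1 (ENSMUSG00000032418, chr9:86581371-86695953, minus strand), cytosolic malic enzyme, supplies NADPH for the reductive steps. It had 103 and 193 CPM in the control libraries and 297, 278 and 151 CPM in the knockout libraries. Knockout replicates 1 and 2 lay above both controls and knockout replicate 3 between them. The control libraries differed by 1.88 times, almost as much as the highest and lowest knockout libraries (1.97 times). The log2 fold change of 0.71 (SE 0.37) was 1.24 without control replicate 3 and 0.32 without control replicate 1.

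The acetyl-CoA carboxylases make malonyl-CoA, Acaca in the cytosol for synthesis and Acacb at the outer mitochondrial membrane, where its product restrains the entry of fatty acids into oxidation. Acaca is ENSMUSG00000020532 at chr11:84129672-84401651, plus strand, and Acacb is ENSMUSG00000042010 at chr5:114146535-114250761, plus strand. Acacb had 76.3 and 73.8 CPM in the control libraries and 149, 187 and 108 CPM in the knockout libraries, without overlap. Its log2 fold change was 0.98 (SE 0.23, 95% interval 0.42 to 1.54), the rank 46 by p of all genes tested, and its DESeq2 adjusted p was 0.0654. Acaca had 129 and 141 CPM in the control libraries and 193, 164 and 132 CPM in the knockout libraries. Knockout replicate 3 lay between the controls, and the log2 fold change was 0.27 (SE 0.18, 95% interval -0.16 to 0.70), the smallest of the 10. Without knockout replicate 1 it was 0.13.

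The ratio of the 2 carboxylases was higher in every knockout library than in the control libraries. Per length of exon, the ratio of Acacb to Acaca was 1.05 and 0.929 in the control libraries and 1.37, 2.02 and 1.45 in the knockout libraries. The mean log2 ratio was 0.67 (SD 0.30, n = 3) in knockout and -0.02 (SD 0.12, n = 2) in control livers. An exact permutation test over libraries, two-sided, gave p = 0.2, the smallest that 3 against 2 libraries allow, and 0.533 adjusted over the 4 ratios compared.

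Fasn (ENSMUSG00000025153, chr11:120805846-120824547, minus strand), the fatty acid synthase that assembles palmitate, differed most of the 10. It had 586 and 601 CPM in the control libraries and 1504, 1197 and 1253 CPM in the knockout libraries. The control libraries differed by 1.02 times, and the lowest knockout library was 1.99 times the higher control. The log2 fold change was 1.15 (SE 0.17), with a 95% interval from 0.75 to 1.55, a fold of 1.69 to 2.93. Fasn ranked 5 of all genes by p, with an edgeR adjusted p of 0.970 and a DESeq2 adjusted p of 4.57e-09. Leaving out any single library kept the log2 fold change between 1.05 and 1.22, the lower value without knockout replicate 1, the library with muscle markers.

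Elovl6 (ENSMUSG00000041220, chr3:129532355-129638495, plus strand) lengthens palmitate to stearate. Its levels were 95.1 and 122 CPM in the control libraries and 311, 144 and 213 CPM in the knockout libraries. Knockout replicate 2, which was highest for Acacb, was lowest here, yet still 1.18 times the higher control. The log2 fold change was 1.04 (SE 0.32, 95% interval 0.26 to 1.81). It was 0.72 without knockout replicate 1.

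Scd1 (ENSMUSG00000037071, chr19:44394451-44407709, minus strand), the stearoyl-CoA desaturase that makes oleate and palmitoleate, was the most abundant of the 10. It had 10424 and 6292 CPM in the control libraries and 14906, 15291 and 5774 CPM in the knockout libraries. Knockout replicates 1 and 2 were above both controls and knockout replicate 3 was below both. The log2 fold change was 0.52 (SE 0.46, 95% interval -0.57 to 1.62), and it was 0.20 without control replicate 3 and 0.93 without control replicate 1.

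Relative to Fasn, Scd1 had a lower mean in knockout livers, within the spread of the libraries. The ratio per length was 40.3 and 23.7 in the control libraries and 22.4, 28.9 and 10.4 in the knockout libraries. The mean log2 ratio differed by -0.71 between knockout (4.24, SD 0.77, n = 3) and control livers (4.95, SD 0.54, n = 2), with an exact permutation p of 0.4, two-sided (0.533 adjusted over the 4 ratios).

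Elovl5 (ENSMUSG00000032349, chr9:77917364-77984519, plus strand) elongates polyunsaturated chains and varied most between libraries. It had 377 and 256 CPM in the control libraries and 555, 868 and 202 CPM in the knockout libraries, a 4.29-fold range within the knockout group. As for Scd1, knockout replicates 1 and 2 were above both controls and knockout replicate 3 below both. The log2 fold change was 0.77 (SE 0.55, 95% interval -0.55 to 2.10), and 0.26 without knockout replicate 2. The ratio of Elovl6 to Elovl5 per length ran from 0.0907 to 0.577 in the knockout libraries, with 0.138 and 0.261 in the control libraries between these ends. Its mean log2 value was -1.99 in knockout and -2.40 in control livers (exact permutation p = 0.8, two-sided, n = 3 and 2).

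Fads2 and Fads1, the delta-6 and delta-5 desaturases of polyunsaturated fatty acids, lie near each other on chromosome 19. Fads2 is ENSMUSG00000024665 at chr19:10064164-10101503, minus strand, and Fads1 is ENSMUSG00000010663 at chr19:10182888-10196870, plus strand. Fads2 had 452 and 249 CPM in the control libraries and 660, 524 and 408 CPM in the knockout libraries. Fads1 had 655 and 328 CPM in the control libraries and 723, 669 and 559 CPM in the knockout libraries. For both genes control replicate 1 stood within the knockout range and control replicate 3 below it. The log2 fold change was 0.60 (SE 0.31) for Fads2 and 0.40 (SE 0.30) for Fads1. Without control replicate 3 these values were 0.23 and -0.01, and without control replicate 1 they were 1.09 and 0.98.

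The ratio of this pair varied little between libraries. Fads2 to Fads1, per length, was 1.58 and 1.74 in the control libraries and 2.09, 1.80 and 1.68 in the knockout libraries. The difference of the mean log2 ratios was 0.15 (exact permutation p = 0.4, two-sided, n = 3 and 2), and the SD was 0.16 in knockout and 0.10 in control livers.

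**Figure D2:**
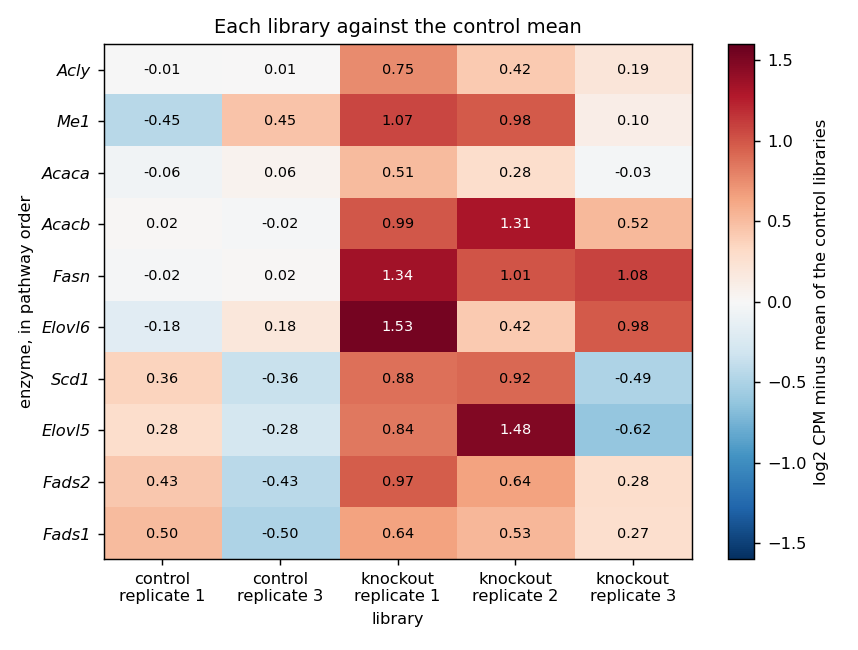
Log2 CPM of each enzyme (rows, in pathway order) in each library (columns) minus the mean of the control libraries, with 0.5 CPM added before the logarithm. Knockout replicates 1 and 2 are above the control mean in all 10 rows, and knockout replicate 3 is below it for Acaca, Scd1 and Elovl5.

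The 3 knockout livers were not alike. In knockout replicates 1 and 2 all 10 enzymes lay above both control libraries, and in knockout replicate 3 only 4 did. Those 4 are the enzymes without overlap named above, against 8.16% of all genes. The share of all genes above both controls in a single library is not given here, so the counts per library are description only. The median of the 10 log2 differences from the control mean was 0.93, 0.78 and 0.23 in knockout replicates 1, 2 and 3. Knockout replicate 3 was the lowest of the knockout libraries for 8 of the 10 enzymes, and knockout replicate 2 for the other 2, Fasn and Elovl6. Without knockout replicate 3 the median fitted log2 fold change of the 10 was 0.90, and without knockout replicate 1 it was 0.47.

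Among the adipocyte markers, Plin4, Cidea and Cfd were above both controls in knockout replicates 1 and 2 but not in knockout replicate 3. Fabp4 was also lowest in knockout replicate 3, with 7.20, 6.03 and 3.94 CPM in the knockout libraries. In the control libraries Fabp4 had 6.31 and 5.62 CPM. The summed level over the 8 adipocyte genes was 24.0 and 31.8 CPM in knockout replicates 1 and 2 and 11.4 CPM in knockout replicate 3. In the control libraries it was 12.3 and 13.99 CPM. By edgeR 0 of the 4 that could be tested passed, with 1, Plin4, at an unadjusted p under 0.05. Log2 fold changes were 1.21 (SE 0.49) for Plin4, 1.13 (SE 0.49) for Cidea, 1.58 (SE 0.71) for Cfd and -0.06 (SE 0.26) for Fabp4. The defining adipocyte genes Adipoq, Lep, Plin1 and Retn had 0 to 3 counts in every library. Skeletal muscle markers were high in knockout replicate 1 only, as given above. Without that library the log2 fold changes were 1.05 for Fasn, 0.97 for Acacb, 0.72 for Elovl6 and 0.31 for Acly. They are the 4 enzymes without overlap, so values above 0 here were fixed by that choice. All 8 sinusoidal endothelial markers and all 8 stellate cell markers had log2 fold changes below 0, with medians of -0.38 and -0.24, and the summed endothelial level was 206 to 284 CPM in the knockout and 267 to 323 CPM in the control libraries. The summed stellate level was 180 to 260 CPM in knockout and 244 and 259 CPM in control libraries. Every knockout library lay below both controls for 4 of the 8 endothelial and 3 of the 8 stellate markers. The share of all genes lower in this way is not given here. By edgeR, 2 endothelial and 3 stellate markers had an unadjusted p under 0.05, against 564 of the 16441 genes tested, and 0 passed after adjustment. The part of these markers in the enzyme values was not tested.

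**Figure D3:**
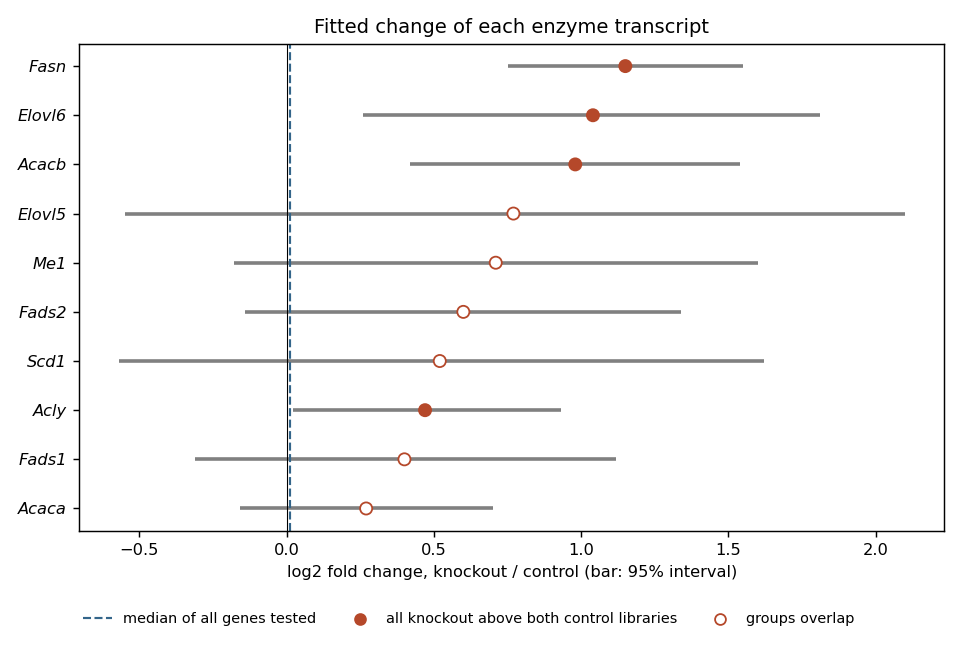
Fitted log2 fold change of each enzyme (points) with its 95% interval (bars) from the edgeR fit, sorted by size, with the median of all genes tested (0.01) as a dashed line. Filled points are the 4 enzymes whose libraries do not overlap, and their intervals are the 4 that exclude 0.

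Compared per length, Scd1 stood far above the other enzymes, with 1194 to 3162 RPKM, a range that did not meet that of any other. It made up 60.7% to 74.0% of the summed RPKM of the 10. Fads2 followed with 165 to 438 RPKM and was above Fads1 (94.8 to 209 RPKM) in all 5 libraries. Fads1 was above Elovl5 in 4 of 5 libraries and Elovl5 above Fasn in 4 of 5, so these neighbours changed places between livers. Fasn was above Acly in 3 of 5 libraries: in both control libraries Acly was higher, at 68.1 and 69.1 RPKM against 53.6 and 54.9 RPKM for Fasn, and in the 3 knockout libraries Fasn was. Acly was above Me1, Me1 above Elovl6 and Elovl6 above Acacb in every library. Acacb (7.66 to 19.4 RPKM) and Acaca (7.57 to 11.3 RPKM) were lowest, and Acacb was above Acaca in 4 of 5 libraries. This order depends on the deposited exon lengths, such as 17074 bases for Acaca, 9632 for Acacb, 3456 for Fads1 and 1508 for Fads2. In CPM, Fads1 was above Fads2 and Fasn above Acly in every library, and Acaca above Acacb in all but knockout replicate 2.

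Around these enzymes, 7 further lists were written down by function, with 70 genes, of which 69 were in the table and 65 were tested. By edgeR 0 of the 65 passed, as by DESeq2 and limma-voom, and 1 had an unadjusted p under 0.05. In the list for citrate, acetyl-CoA and NADPH supply, 10 of 11 tested genes were higher, with a median log2 fold change of 0.26. Acss2, the cytosolic acetyl-CoA synthetase, had 227 and 170 CPM in the control and 263, 309 and 238 CPM in the knockout libraries, a log2 fold change of 0.44 (SE 0.19), which was 0.25 without control replicate 3. Pklr, liver pyruvate kinase and a ChREBP target, had 179 and 512 CPM in the control and 602, 649 and 736 CPM in the knockout libraries. Its log2 fold change of 0.94 (SE 0.41) was 0.37 without control replicate 1 and 1.89 without control replicate 3. Slc25a1, the mitochondrial citrate carrier, had 196 and 175 CPM against 221, 227 and 216 CPM, a log2 fold change of 0.26 (SE 0.12). These 3 genes and Mpc1, a subunit of the mitochondrial pyruvate carrier, did not overlap between the groups and did not pass the test. They are 4 of the 11 tested genes of this list, against 8.16% of all genes. Over all 65 genes of the 7 lists, every knockout library lay above both controls for 5, these 4 included, a share near the 8.16% of all genes.

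The elongases and desaturases outside the 10 had list medians near that of all genes. Among other elongases and the enzymes that complete the elongation cycle, 5 of 9 tested genes were higher and 4 lower (median 0.07). Elovl2, another elongase of polyunsaturated chains, had 828 and 433 CPM in the control and 798, 772 and 627 CPM in the knockout libraries. Elovl3 ranged from 14.4 to 262 CPM within the knockout group, with knockout replicate 2 highest, and Elovl1 had a log2 fold change of -0.23 (SE 0.18). Of 7 other desaturases 4 were higher and 3 lower (median 0.10), with log2 fold changes of 0.54 (SE 0.43) for Scd3, 0.36 (SE 0.38) for Scd2 and -0.11 (SE 0.12) for Degs1, the sphingolipid desaturase.

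Regulators of the pathway were spread on both sides of 0. Of 15 transcriptional regulators 8 were higher and 7 lower, with a median of 0.04. Srebf1, which encodes SREBP-1, had 389 and 442 CPM in the control and 644, 346 and 632 CPM in the knockout libraries. Knockout replicate 2 was thus below both controls, and the log2 fold change of Srebf1 was 0.38 (SE 0.28). Mlxipl, which encodes ChREBP, had a log2 fold change of 0.04 (SE 0.19). Ppargc1b, a coactivator of SREBP-1c, was at 11.6 and 6.54 CPM in the control and 6.32, 5.55 and 6.06 CPM in the knockout libraries, with -0.61 (SE 0.25). Without control replicate 1 that value was -0.13. Pparg had 0.94 (SE 0.41), with 19.7, 15.4 and 6.91 CPM in the knockout and 7.35 and 7.28 CPM in the control libraries, and 0.61 without knockout replicate 1. Usf2 had 0.27 (SE 0.19).

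The lists of proteins that tune the carboxylases and of enzymes that activate fatty acids had medians close to that of all genes. Of 9 such modulators 6 were higher and 3 lower (median 0.04). Thrsp, the Spot 14 protein of lipogenic tissue, had 726 and 690 CPM in the control and 1386, 428 and 1325 CPM in the knockout libraries. Knockout replicate 2 was thus below both controls, as for Srebf1, and the log2 fold change of Thrsp was 0.56 (SE 0.47). Mid1ip1, which promotes the polymerisation of acetyl-CoA carboxylase, stood at a log2 difference of 0.43 (SE 0.26), which was 0.18 without knockout replicate 3. Prkag1, a subunit of the AMP-activated kinase, had 0.25 (SE 0.12). Of 8 fatty acid activation genes 4 were higher and 4 lower (median 0.00), with 0.31 (SE 0.20) for Acsl3, -0.62 (SE 0.49) for Acss1 and 0.18 (SE 0.19) for Dbi. The mitochondrial fatty acid synthesis genes, a separate bacterial-type pathway, had 3 of 6 higher and 3 lower (median -0.01), and log2 fold changes of 0.06 (SE 0.14) for Acsf3, -0.04 (SE 0.11) for Mcat and 0.05 (SE 0.13) for Cbr4.

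**Figure D4:**
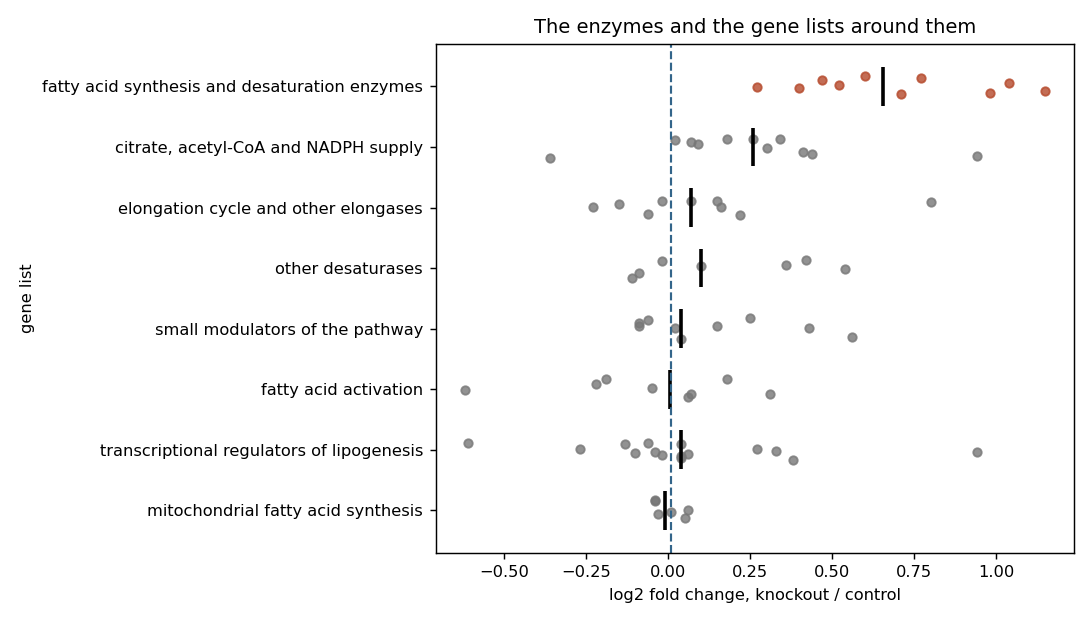
Log2 fold change of each tested gene (points) in the list of the 10 enzymes and in 7 lists around it, with list medians as black bars and the median of all genes tested as a dashed line; vertical scatter within a row has no meaning. The median is 0.65 for the 10 enzymes, 0.26 for the supply of citrate, acetyl-CoA and NADPH and between -0.01 and 0.10 for the others.

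The near copies Scd3 and Scd2 held almost the same share of the Scd1 counts in each library. Scd3 held 0.252% to 0.279% of the Scd1 count in each library while Scd1 itself ranged 2.65-fold in CPM, and Scd2 held 0.182% to 0.226%. Of the 50-base stretches in Scd1 transcripts, 4.56% also occur in transcripts of other genes, mainly Scd3 and Scd2. Gm11295, a processed pseudogene that shares sequence with Elovl6, had 25 and 38 counts in the control and 98, 62 and 63 counts in the knockout libraries, 0.825% to 1.30% of the Elovl6 count, and a log2 fold change of 1.18 (SE 0.36). For Acaca 30.4% and for Me1 28.3% of such stretches occur elsewhere, mainly in transcripts of Gm5182 and Gm7049. How reads with several matches were counted is not given in the sources used here, so the counts of Acaca, Me1, Scd1 and Elovl6 are uncertain to that extent. Fasn, Acacb, Acly, Elovl5 and Fads1 shared no such stretch with another gene.

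The 5 genes most like Fasn over the 5 libraries were not among the other 9 enzymes. Likeness was the root mean square difference of log2 CPM, each gene centred on its own mean, over 10104 genes with at least 5 CPM on average. The 5 nearest were C730036E19Rik (0.206), Rad54l2 (0.222), Hdc (0.232), G0s2 (0.239) and Slc16a7 (0.247). Hdc makes histamine from histidine, G0s2 inhibits the lipase that opens triglyceride breakdown, and Slc16a7 is a monocarboxylate carrier. G0s2 had 66.6 and 87.8 CPM in the control and 136, 116 and 134 CPM in the knockout libraries. Of the other 9 enzymes Elovl6 was nearest to Fasn, at rank 14, then Acacb at rank 22 and Acly at rank 48, while Scd1 and Elovl5 stood at ranks 7913 and 9565.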

How the data were processed

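Total RNA of whole livers was sequenced on the Illumina HiSeq2500 platform after TruSeq library preparation, per the labels' protocols. The authors deposited read counts per gene, whole numbers without normalization, and the submitters' processing notes list, without stating their roles, featureCounts 1.4.6-p4, Subread 1.4.6-p4, Trimmomatic 0.33, FastQC and the build GRCm38 (mm10). For the strand setting, reads with several matches and the annotation version, nothing is given in the sources used here. The exon length per gene is another deposited column, used for RPKM.

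From the counts, genes were kept by filterByExpr and scaled by TMM, and the groups were compared with edgeR 4.0.16 (glmQLFit and glmQLFTest, two-sided, R 4.3.3), 3 knockout against 2 distinct control libraries, with Benjamini-Hochberg adjustment over all 16441 genes kept and a threshold of 0.05. Standard errors were derived from the F statistic and 95% intervals from its t equivalent. Alternatives used DESeq2 1.42.0, limma 3.58.1, other scalings, filters and libraries. Ratios per library were tested with exact permutation tests (SciPy 1.17.1).

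The reads carry no molecular identifiers, so depth speaks to counting error only. The members and lists were chosen with earlier results of these data known. Named genes were Mtdh, the 10 enzymes, up to 3 genes per list with the smallest p, the 5 genes nearest to Fasn and coding genes within 50 kb of an enzyme; Elovl2, Srebf1, Mlxipl, Mpc1, Fabp4 and the near copies were named after their values were seen. The symbols Hsd17b8 and Tf had no match. The markers of macrophages (7 of 8 lower, median -0.16), cholangiocytes (3 of 5 lower, median -0.07), erythroid cells (5 of 5 lower, median -0.27) and hepatocytes (5 of 9 lower, median -0.01) had no member past the edgeR threshold. No batch is named in the labels.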

Additional observations from a re-analysis of the deposited data

How the results depend on the processing

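Over 20 other settings, 198 of the 200 log2 fold changes of the 10 enzymes were above 0, and their median ran from 0.47 to 0.95. The exceptions were 2 values of -0.01 for Fads1 without control replicate 3, by edgeR and by DESeq2, against 0.98 without control replicate 1. By edgeR and limma-voom 0 of the 10 enzymes were called in every setting. DESeq2 called 1 enzyme, Fasn, and 19 genes in all. DESeq2 fits that left out a library, added after the data were seen, called 1 to 3 enzymes, and 6, 49 and 72 genes without knockout replicates 1, 2 and 3 and 27 and 147 genes without control replicates 1 and 3, and Fasn in each of the 5, with adjusted p from 1.39e-08 to 0.00210. Acacb and Elovl5 were called without knockout replicate 3, Elovl6 without knockout replicate 2 and Fads1 without control replicate 1. Of all genes, edgeR called 1, but 3 without a low-count filter and 1 to 6 when a library was left out, 6 of them without control replicate 3. The log2 ratio of Elovl6 to Elovl5 differed by 0.41 between the groups, and by -0.18 to 1.15 when a library was left out, falling below 0 where knockout replicate 3 (-0.18) or control replicate 1 (-0.05) was left out. The cause was not tested. With the replicate number as a block, 0 genes and 0 enzymes were called and the median of the 10 was 0.53 over the distinct libraries, with 0.11 for Elovl5 and 0.20 for Scd1; over all 6 columns 1 gene was called and the median was 0.48. The labels name nothing that same-numbered libraries share but the number. Their deviations from the group means correlated by -0.03 and 0.14 for numbers 1 and 3, and with 2 control libraries, whose deviations mirror each other, these values do not settle whether a batch was shared. Where a control library is left out, the lone control is assumed to vary like the knockout group.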

Other observations

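Genes beside the enzymes on the chromosome were mostly near the median of all genes. Within 50 kb of the 10 enzymes, 26 other coding genes were tested, of which 15 had a log2 fold change above 0 and 11 below, with a median of 0.03, and by edgeR 0 passed. Every knockout library lay above both controls for 2 of the 26, Ccdc57 and Fen1, a share near the 8.16% of all genes, so the count says nothing particular about these neighbours. Ccdc57, which lies 1982 bases from Fasn on the same strand, averaged 5.68 CPM in the knockout group against 3.30 CPM in the controls, with a log2 difference of 0.78 (SE 0.31). Fen1, the flap endonuclease gene 2262 bases from Fads1, was low in both groups, with means of 0.376 CPM for the knockout and 0.212 CPM for the control group. Dus1l, Gps1 and Rfng, also within 50 kb of Fasn, had log2 fold changes of 0.16 (SE 0.14), 0.09 (SE 0.11) and 0.04 (SE 0.12). Nt5c3b, near Acly, was the 1 neighbour lower without overlap, with -0.62 (SE 0.21).

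Summed over the 10 enzymes, transcripts made up 13258 and 8619 CPM in the control libraries and 19906, 19805 and 9213 CPM in the knockout libraries, so knockout replicate 3 lay between the controls. Without Scd1 the sums were 2834 and 2327 CPM in the control and 5001, 4514 and 3439 CPM in the knockout libraries, which do not overlap. These sums were formed after the values were seen and carry no test.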
